A study of Homo sapiens with 6 samples.

Results

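The metalloproteases of the MMP, ADAM and ADAMTS families and their inhibitors TIMP1 to TIMP4 and RECK were measured in H358, a human cell line established from a non-small cell lung cancer and epithelial in its growth. Members were all genes whose symbol starts with MMP, ADAM or ADAMTS followed by a number, the TIMP genes and RECK, taken where a probe set of the array was annotated to that symbol alone. These were 67 of the 18417 genes tested, namely 22 MMP, 23 ADAM, 17 ADAMTS and 5 inhibitor genes. The cells stably expressed green fluorescent protein (GFP) or TwistER, with 3 arrays of each. TwistER names a fusion of Twist, a transcription factor, with the hormone-binding domain of the estrogen receptor, and both lines received 100 nM 4-hydroxytamoxifen (4OHT), which activates such fusions, for 12 days. The titles place the GFP arrays before and the TwistER arrays after epithelial-mesenchymal transition, in which epithelial cells lose their junctions and become migratory. The comparison asks which genes differ between the lines. There was no arm of TwistER cells without 4OHT, so an effect of activation and other differences between the lines cannot be told apart. The labels do not say whether a line is 1 clone.

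MMPs are zinc endopeptidases that cut collagens, laminins and other matrix proteins, some secreted and some bound to the membrane. ADAMs are membrane proteins, part of which cut the outer domains of growth factors, cytokine receptors and adhesion molecules from the cell surface, while others lack a working zinc site and serve in adhesion. ADAMTS enzymes are secreted, bind matrix through thrombospondin repeats, and cut proteoglycans such as versican or process procollagens. TIMPs block the active site of these enzymes, and RECK is a membrane-anchored inhibitor of several of them. Matrix proteases are widely described in epithelial-mesenchymal transition and tumour invasion.

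Values are log2 expression, and every difference is TwistER minus GFP on the log2 scale, with the standard error (SE) of limma, a linear-model test that pools the spread over genes. A gene is said to have risen or fallen at a Benjamini-Hochberg adjusted p under 0.05 over all 18417 genes. GFP replicate 1 correlated with the other GFP arrays at r = 0.982 to 0.983 over genes, against 0.996 between GFP replicates 2 and 3 and 0.993 to 0.995 among the TwistER arrays. Results of members are therefore also given without it where it changed a call. Markers and the listed genes outside the members are given with all 6 arrays only. All 6 epithelial markers examined were brighter than the median gene, and 4 of them fell (EPCAM by 3.28, CDH1 by 4.99, KRT19 by 3.22 and KRT8 by 0.70). Of 9 fibroblast markers 2 rose (PDGFRA and COL1A1), 1 fell (LUM) and the summed log2 value was 38.69 to 40.02 in GFP and 39.33 to 39.59 in TwistER arrays. Of 5 endothelial markers 2 rose (KDR by 1.79 and PECAM1 by 0.61), with sums of 22.05 to 22.37 in GFP and 24.66 to 24.99 in TwistER arrays, and of 6 leukocyte markers 0 changed, with sums of 21.64 to 21.92 and 22.14 to 23.16. Some of these markers were dim on every array (DCN, VWF, CDH5, LYZ and MS4A1, at or below 4.49) and others were not, such as LUM (7.32 to 8.01 in GFP arrays), CD68 (6.17 to 6.67 on all arrays), COL1A1 (5.81 to 6.65), CLDN5 (5.07 to 5.54) and KDR (6.62 to 6.81 in TwistER arrays). The part of any such cells in the results below was not tested.

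Few of these genes passed the test for a difference between the lines. ADAMTS1, ADAMTS12 and RECK rose, MMP8 fell, and 63 of the 67 members did not pass the test. The 4 changed members are 5.97% of the 67, against 8.83% of all genes, and the median difference of the members was 0.03, against 0.01 over all genes. The 3 rises and the 1 fall stand beside 4.72% and 4.11% of all genes that rose and fell. In 16 members (23.9%) the TwistER arrays lay wholly above or below the GFP arrays, against 28.4% of all genes.

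**Figure D1:**
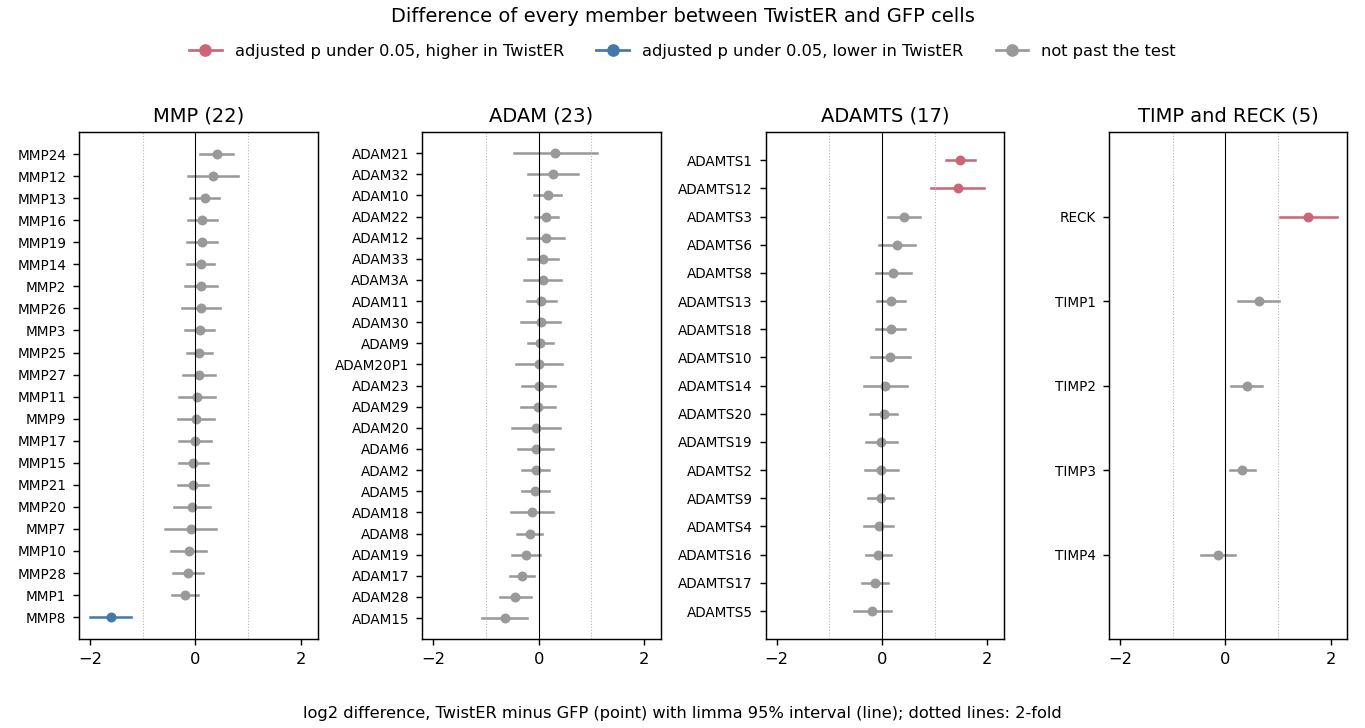
Each point is the log2 difference of 1 member between the 3 TwistER and the 3 GFP arrays, and the line is limma's 95% interval, in 4 panels by subfamily. Most lines cross 0 and stay within the dotted 2-fold bounds, and the 4 coloured members are ADAMTS1, ADAMTS12, RECK and MMP8.

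The 95% intervals also gave bounds on the differences of the other members. A 95% interval that stays within a 2-fold difference in either direction was found for 60 of the 67 members, against 92.0% of all genes. It was found for 21 of the 21 MMP genes and 15 of the 15 ADAMTS genes that did not pass, and for 21 of the 23 ADAM genes, the exceptions being ADAM15 and ADAM21. Of the inhibitors it was found for 3 of the 4 that did not pass, the exception being TIMP1, whose interval reached 1.02, and for 3 of all 5. Genes that did not pass were selected for a small difference relative to their SE, so their counts partly follow from that selection. The share among all genes that did not pass was not counted. The SE of a member's difference ranged from 0.10 to 0.35. However, 30 of the 67 members had a mean among the dimmest genes (the lower quartile of all genes tested, up to 4.21), where background light compresses differences, and 51 were below the median. For such genes a flat reading does not show that the transcript was unchanged.

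ADAMTS1 was higher in all TwistER arrays and its fold varied little with the arrays used. This secreted protease cuts versican and aggrecan. It read 6.51, 6.72 and 6.77 in GFP replicates 1 to 3 and 8.25, 8.15 and 8.07 in TwistER replicates 1 to 3. The groups were separated by 1.30 on the log2 scale, and the spread within each was small (6.67 ± 0.14 and 8.16 ± 0.09, SD, n = 3). ADAMTS1 rose 2.81-fold (1.49 ± 0.12 SE, limma adjusted p = 0.000148), and without any 1 array the difference was 1.41 to 1.54. ADAMTS5, another protease of aggrecan and versican, is the next protein-coding gene to ADAMTS1 on chromosome 21 in RefSeq's gene table. It did not move with its neighbour, at 3.83, 3.42 and 3.44 in GFP and 3.18, 3.43 and 3.53 in TwistER arrays. Its difference was -0.18 ± 0.15 (limma adjusted p = 0.572, 95% interval -0.53 to 0.16) and its mean was in the lower quartile of brightness.

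ADAMTS12, which cuts cartilage oligomeric matrix protein, read 3.82, 4.62 and 4.69 in GFP and 5.86, 5.90 and 5.68 in TwistER arrays. GFP replicate 1 was the lowest array and lay below the bound of the lower quartile of brightness (4.21). The mean of ADAMTS12 over the 6 arrays was in the second quartile. The TwistER arrays all lay above the GFP arrays. ADAMTS12 rose 2.70-fold (1.43 ± 0.22, limma adjusted p = 0.00470), and without GFP replicate 1 the difference was 1.16 (limma adjusted p = 0.000516). Against a difference of at least 0.5 in place of 0, limma's treat gave it an adjusted p of 0.0600, so a rise of at least that size did not pass.

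RECK inhibits MMP2, MMP9, MMP14 and ADAM10 at the cell surface. It read 5.98, 5.83 and 5.06 in GFP and 7.39, 7.25 and 6.96 in TwistER arrays. The groups did not overlap, and GFP replicate 3 was lower than the other GFP arrays. RECK rose 2.98-fold (1.58 ± 0.23, limma adjusted p = 0.00392), with differences of 1.30 to 1.75 when any 1 array was left out.

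MMP8, the collagenase best known from neutrophils, was the only MMP gene that changed in this fit. It read 5.23, 5.56 and 5.52 in GFP and 3.49, 4.09 and 3.89 in TwistER arrays. Every TwistER array was at least 1.13 below every GFP array. MMP8 fell 3.05-fold (-1.61 ± 0.17, limma adjusted p = 0.000720), with differences of -1.75 to -1.44 when any 1 array was left out. Its mean over the 6 arrays was in the second quartile of brightness, and its TwistER mean of 3.82 was below the bound of the lower quartile. The leukocyte marker PTPRC, which neutrophils also carry, read 4.45, 3.76 and 4.07 in GFP and 4.29, 4.42 and 4.47 in TwistER arrays, in the second quartile of brightness. Of the 6 leukocyte markers 5 had a difference above 0 and 1 below, and 0 changed. Any part of neutrophils in the MMP8 values was not tested.

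**Figure D2:**
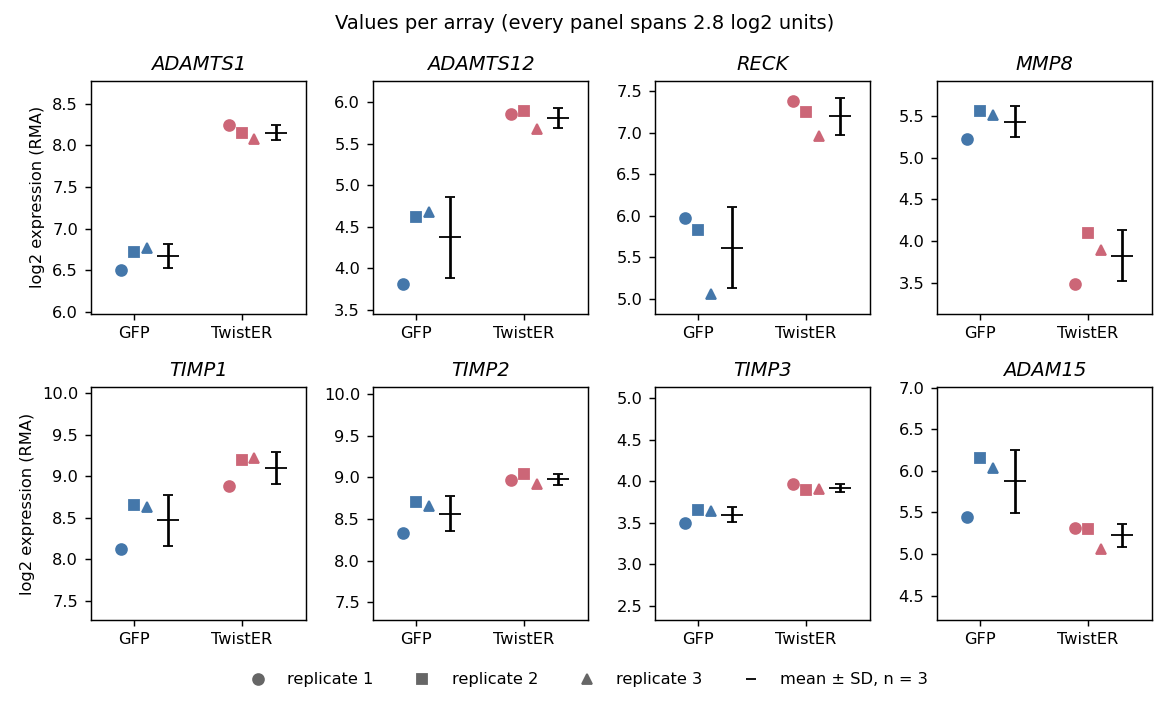
Log2 expression of 8 members in each array, with the mean and SD of 3 arrays beside the points, and panels of equal height. The groups of ADAMTS1, ADAMTS12, RECK and MMP8 lie at least 0.98 apart on the log2 scale, while those of TIMP1, TIMP2, TIMP3 and ADAM15 are separate but close.

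The stretches before the start of the changed genes are shown because Twist, like other basic helix-loop-helix factors, binds the E-box, written CANNTG. RefSeq's promoter table (GRCh38.p14) held ADAMTS12, RECK and MMP8 but not ADAMTS1. The 250 bases before the start are printed on the gene's strand with E-boxes in capitals. The windows are chr5:33891991-33892240 on the minus strand for ADAMTS12, chr9:36036663-36036912 on the plus strand for RECK and chr11:102724955-102725204 on the minus strand for MMP8.
ADAMTS12: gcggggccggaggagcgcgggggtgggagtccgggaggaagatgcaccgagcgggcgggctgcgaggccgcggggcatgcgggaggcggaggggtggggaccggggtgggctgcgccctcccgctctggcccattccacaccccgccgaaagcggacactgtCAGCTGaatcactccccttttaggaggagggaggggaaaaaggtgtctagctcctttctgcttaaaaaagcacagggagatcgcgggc
RECK: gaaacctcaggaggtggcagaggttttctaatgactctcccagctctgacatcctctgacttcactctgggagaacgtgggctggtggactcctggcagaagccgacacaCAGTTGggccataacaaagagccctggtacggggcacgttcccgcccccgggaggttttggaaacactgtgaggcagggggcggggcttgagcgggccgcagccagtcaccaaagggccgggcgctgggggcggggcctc
MMP8: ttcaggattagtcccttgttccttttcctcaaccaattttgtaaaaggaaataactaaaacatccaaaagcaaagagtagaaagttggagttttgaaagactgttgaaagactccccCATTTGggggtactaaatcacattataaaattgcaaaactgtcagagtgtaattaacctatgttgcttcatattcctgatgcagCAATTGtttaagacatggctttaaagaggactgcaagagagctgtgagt
The ADAMTS12 window holds 1 E-box (CAGCTG, first base at -88 from the start), the RECK window 1 (CAGTTG, at -140) and the MMP8 window 2 (CATTTG at -133 and CAATTG at -49). CANNTG reads the same on both strands, and it occurred in 61.8% of all 34943 windows of this length, so its presence in these 3 does not set them apart. Of the 67 members, 38 had a window, and 25 of these (65.8%) held an E-box. CAGCTG, one kind of E-box, occurred in 14.0% of all windows and in 5 of the 38, namely ADAMTS12, ADAMTS14, ADAMTS18, ADAM22 and MMP26. CATATG, another kind, occurred in 2.63% of all windows and in 0 of the 38. CAGGTG or CACCTG occurred in 17.5% of all windows and in 8 of the 38. The AP-1 motif TGACTCA, searched on both strands as TGACTCA or TGAGTCA, occurred in 4.22% of all windows and in 1 of the 38, that of MMP7. A match is a description of the letters and not of binding.

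MMP8 lies in a run of 9 MMP genes on chromosome 11, from MMP7 to MMP13, in which RefSeq's table places no other protein-coding gene. The 8 other genes of the run did not pass the test, with differences between -0.20 and 0.33. MMP13, a collagenase of cartilage and invasive tumours at the other end of the run, read 7.85, 7.58 and 7.56 in GFP and 7.75, 7.90 and 7.87 in TwistER arrays. Its groups overlapped, and its difference was 0.18 ± 0.12 (limma adjusted p = 0.468). MMP1, the interstitial collagenase, read 3.48, 3.64 and 3.51 in GFP and 3.27, 3.42 and 3.36 in TwistER arrays. Its groups did not overlap, but the difference of -0.20 ± 0.11 did not pass (limma adjusted p = 0.352). MMP7 (matrilysin), a protease of glandular epithelia, had its highest value in GFP replicate 1, at 5.08 against 4.41 and 4.27, with 4.43, 4.71 and 4.34 in TwistER arrays. Its difference of -0.09 ± 0.21 turned to 0.15 without that array, and neither passed (limma adjusted p = 0.859 and 0.528). The stromelysins MMP3 and MMP10, MMP12 of macrophages, MMP20 of enamel and MMP27 make up the rest, each in the lower quartile of brightness.

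**Figure D3:**
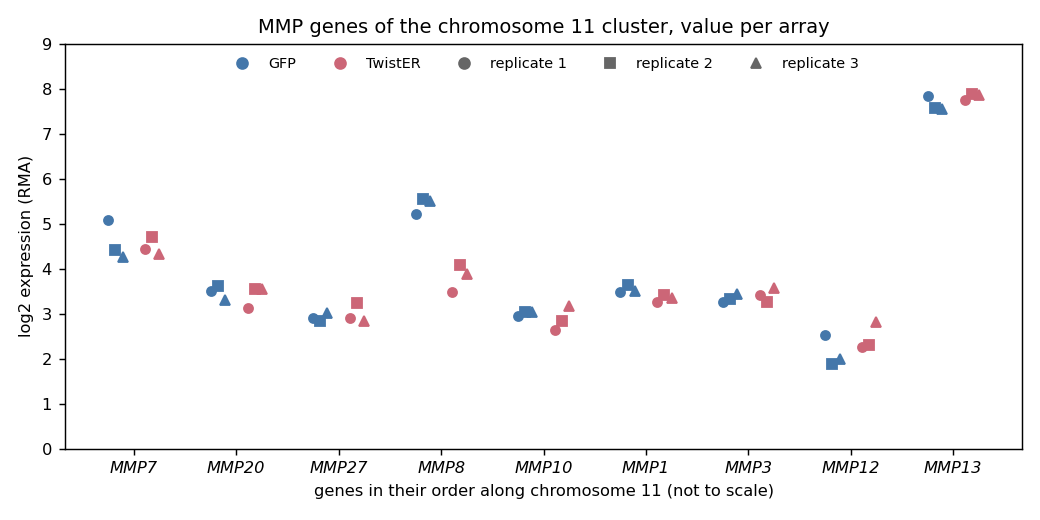
Log2 expression per array of the 9 MMP genes of the chromosome 11 run, in chromosomal order, with GFP in blue and TwistER in red. MMP8 shows a gap between the groups, and of the other 8 MMP1 is separated by a narrow margin while the rest overlap.

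The MMPs most often linked with epithelial-mesenchymal transition did not pass the test. MMP2, a gelatinase, was 4.16 ± 0.15 in GFP and 4.26 ± 0.17 in TwistER (0.10 ± 0.13, limma adjusted p = 0.738, 95% interval -0.20 to 0.40). MMP9, the other gelatinase, was 3.87 ± 0.25 and 3.87 ± 0.15, a difference of 0.01 ± 0.15 (limma adjusted p = 0.986, 95% interval -0.33 to 0.35). Both gelatinases were in the lower quartile of brightness, and the sign of the MMP9 difference changed with the normalization. The membrane-bound MMP14, which activates pro-MMP2, was 4.46 ± 0.08 and 4.57 ± 0.11 (0.10 ± 0.11, limma adjusted p = 0.679, 95% interval -0.15 to 0.36). MMP15, its close relative, was 4.26 ± 0.13 and 4.22 ± 0.11 (-0.04 ± 0.12, limma adjusted p = 0.903). Of the 6 membrane MMP genes, MMP24 alone had separate groups, at 4.64, 4.55 and 4.80 in GFP and 4.84, 5.17 and 5.19 in TwistER arrays, and its difference of 0.40 ± 0.14 did not pass (limma adjusted p = 0.118). MMP24 is named for that separation, after its values were seen. The 21 MMP genes that did not pass had differences from -0.20 to 0.40 with a median of 0.07, and 11 of them were in the lower quartile of brightness.

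No ADAM gene passed the test in limma, where 3 of the 23 had an unadjusted p under 0.05 (ADAM15, ADAM17 and ADAM28). Of the 12 with a catalytic zinc site, 5 (ADAM8, ADAM15, ADAM17, ADAM19 and ADAM28) had every TwistER array below every GFP array and 0 had the reverse, against 14.5% and 13.9% of all genes. ADAM15, which cuts adhesion proteins and carries an integrin-binding motif, read 5.45, 6.15 and 6.03 in GFP and 5.32, 5.30 and 5.07 in TwistER arrays. GFP replicate 1 lay close to the TwistER arrays, and the difference was -0.65 ± 0.19 (limma adjusted p = 0.0722). Without that array ADAM15 fell by 0.86 (limma adjusted p = 0.00267), and over the 15 alternative fits other than treat, 5 of which called it, the limma adjusted p was 0.00118 to 0.238. ADAM17, the sheddase of TNF and of several EGF receptor ligands, read 8.89, 8.88 and 8.78 in GFP and 8.49, 8.58 and 8.54 in TwistER arrays. The separation was clean but small, at -0.32 ± 0.10 (limma adjusted p = 0.103, 95% interval -0.55 to -0.08).

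ADAM28, an ADAM of lymphocytes and lung carcinoma, read 5.55, 5.48 and 5.26 in GFP and 5.12, 4.80 and 5.06 in TwistER arrays, a difference of -0.44 ± 0.13 (limma adjusted p = 0.0820). ADAM19, which processes neuregulin, read 6.12, 6.43 and 6.18 in GFP and 6.01, 6.03 and 5.96 in TwistER arrays (-0.24 ± 0.12, limma adjusted p = 0.289). ADAM8, known from leukocytes and invasive tumours, read 5.14, 5.19 and 5.19 in GFP and 5.04, 5.05 and 4.91 in TwistER arrays (-0.17 ± 0.10, limma adjusted p = 0.404). The groups of these 3 genes were separate, but their differences did not pass, and ADAM28 is named for its separation after its values were seen.

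The other zinc-site ADAMs had overlapping groups. ADAM10, which sheds Notch receptors and E-cadherin, read 11.09, 10.96 and 10.84 in GFP and 11.20, 11.15 and 11.05 in TwistER arrays (0.17 ± 0.11, limma adjusted p = 0.451). ADAM9, a widely expressed sheddase, was 11.43 ± 0.01 and 11.46 ± 0.09, a difference of 0.03 ± 0.10 (limma adjusted p = 0.908, 95% interval -0.21 to 0.27). Both were in the upper quartile of brightness, so the bounds on their differences are not limited by dim signal. ADAM12, often raised in mesenchymal and stromal cells, was 4.02 ± 0.17 and 4.15 ± 0.25 (0.13 ± 0.16, limma adjusted p = 0.718), in the lower quartile. The 11 ADAM genes without such a site, pseudogenes included, had differences from -0.12 to 0.27, and 8 of them were in the lower quartile. ADAM32, one of these 11, was the only one called without GFP replicate 1, with a difference of 0.52 (limma adjusted p = 0.0137) in place of 0.27 ± 0.21 with all arrays (limma adjusted p = 0.540, and 0.0137 to 0.851 over the 15 alternative fits other than treat), and it is named for that reason. Without GFP replicate 1, 4 members rose and 2 fell, where 6.97% and 8.09% of all genes did.

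**Figure D4:**
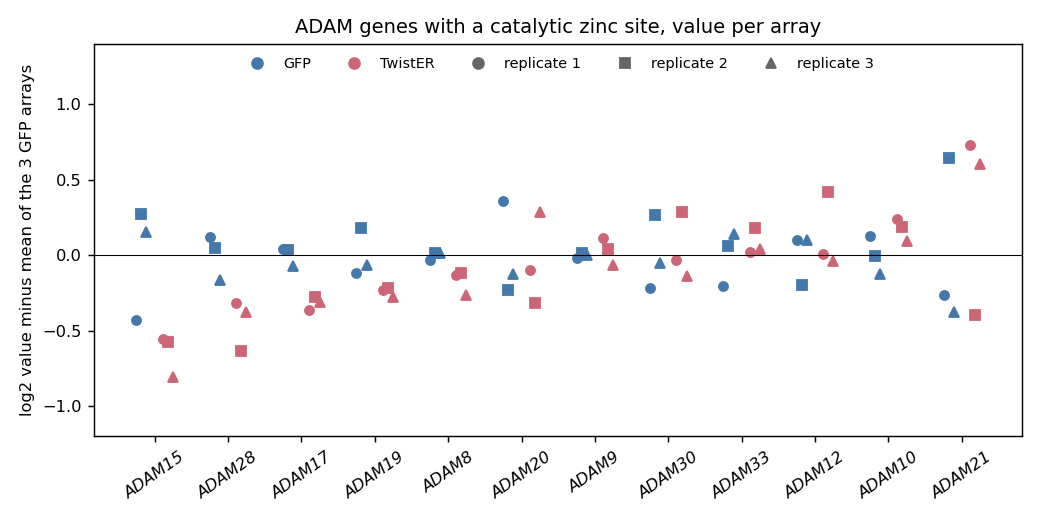
Value of each array minus the mean of the 3 GFP arrays, on the log2 scale, for the 12 ADAM genes with a catalytic zinc site, ordered by difference. The 5 genes at the left have every TwistER array (red) below every GFP array (blue), and GFP replicate 1 of ADAM15 lies near its TwistER arrays.

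Among the ADAMTS genes, the 15 that did not pass had differences from -0.18 to 0.42. ADAMTS3, a procollagen N-proteinase that also activates VEGF-C, read 7.072, 7.503 and 7.266 in GFP and 7.625, 7.782 and 7.709 in TwistER arrays. Its groups were separate, and the difference of 0.42 ± 0.13 did not pass (limma adjusted p = 0.0948). ADAMTS2 and ADAMTS14, the other procollagen N-proteinases, had differences of -0.02 ± 0.14 and 0.07 ± 0.18. Of the 6 hyalectan-cleaving genes, ADAMTS1 was the only one that rose in this fit, and the other 5 (ADAMTS4, ADAMTS5, ADAMTS8, ADAMTS9 and ADAMTS20) had differences from -0.18 to 0.21.

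The inhibitors had the highest median difference of the 4 subfamilies, 0.41, against 0.05 for MMP, 0.00 for ADAM and 0.07 for ADAMTS genes. In 4 of the 5 (RECK, TIMP1, TIMP2 and TIMP3) every TwistER array was above every GFP array, against 13.9% of all genes, but RECK alone passed the test. TIMP3 enters this count through a probe set that was kept for its TwistER values, and the groups of its other probe set overlapped. TIMP1, a secreted inhibitor of most MMPs, read 8.12, 8.65 and 8.63 in GFP and 8.88, 9.19 and 9.22 in TwistER arrays. GFP replicate 1 was again the lowest array. The difference was 0.63 ± 0.17 (limma adjusted p = 0.0592, 95% interval 0.24 to 1.02), and it was 0.46 without that array (limma adjusted p = 0.0514). TIMP1 lay close to the threshold, and it was called in 5 of the 15 alternative fits other than treat, with limma adjusted p values from 0.0198 to 0.204.

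TIMP2, which both inhibits MMP2 and helps MMP14 to activate it, read 8.33, 8.71 and 8.66 in GFP and 8.97, 9.04 and 8.92 in TwistER arrays (0.41 ± 0.13, limma adjusted p = 0.0955). TIMP3, the matrix-bound inhibitor that also blocks ADAM17 and ADAMTS enzymes, read 3.50, 3.66 and 3.64 in GFP and 3.97, 3.89 and 3.90 in TwistER arrays (0.32 ± 0.10, limma adjusted p = 0.105). Its mean was in the lower quartile of brightness. The probe set used was the brighter one only through its TwistER mean (3.92 against 3.47), and its GFP mean was the lower (3.60 against 3.63). Its separation was not shared by the second probe set, whose values overlapped and whose difference was -0.15 ± 0.26. With the mean of the TIMP3 probe sets the difference was 0.08 (limma adjusted p = 0.799). TIMP4 was 4.33 ± 0.18 in GFP and 4.19 ± 0.20 in TwistER (-0.14 ± 0.14, limma adjusted p = 0.676). MMP16, the other member with more than 1 probe set, had differences of 0.13 and 0.03 from its 2 probe sets.

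Genes that act on or with these enzymes were counted in 7 lists, each to be read against the 4.72% of all genes that rose and the 4.11% that fell. Of 8 other inhibitors, clearance receptors and inducers 3 rose and 0 fell, with a median of 0.16. TFPI2, a Kunitz-type inhibitor of plasmin and of matrix proteolysis, read 5.83, 5.46 and 5.27 in GFP and 7.09, 7.21 and 7.01 in TwistER arrays, a 2.99-fold rise (1.58 ± 0.15, limma adjusted p = 0.000446). SPOCK3, a testican proteoglycan, rose 2.08-fold (1.06 ± 0.14), and LRP1, an endocytic receptor that clears protease and inhibitor complexes, rose 1.46-fold (0.54 ± 0.14, limma adjusted p = 0.0494). BSG, which induces MMPs in neighbouring cells, did not pass (-0.26). Of 8 activators, PLAT (tissue plasminogen activator) alone rose, 1.71-fold (0.78 ± 0.15). FURIN, the convertase that activates membrane MMPs and ADAMs, read 5.87, 6.69 and 6.60 in GFP and 5.51, 5.74 and 5.77 in TwistER arrays. Its groups were separate, and the difference of -0.71 did not pass (limma adjusted p = 0.0807). GFP replicate 1 of FURIN lay close to the TwistER arrays, and a fit without it is not given. FURIN, BSG, RHBDF1 and RHBDF2 are outside the rule for named genes and are given for their roles, after their values were seen.

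Of 9 partners of ADAM10 and ADAM17, TSPAN5, a tetraspanin that escorts ADAM10, rose 1.97-fold (0.97 ± 0.17, limma adjusted p = 0.00951), while RHBDF1 and RHBDF2, which carry ADAM17 to the surface, had differences of 0.04 and -0.25. Of 6 measured ADAMTS-like genes THSD4, which binds fibrillin, rose 1.87-fold (0.90 ± 0.21, limma adjusted p = 0.0311). Of 7 other zinc proteases of the matrix TLL1, a tolloid that processes procollagens, rose 1.74-fold (0.80 ± 0.14, limma adjusted p = 0.00808), and 0 fell in either list. Of 11 substrates and binding partners of ADAMTS enzymes 3 rose and 0 fell, with a median of 0.15. VCAN (versican), the substrate of ADAMTS1, read 8.59, 8.68 and 8.52 in GFP and 9.22, 9.29 and 9.12 in TwistER arrays, a 1.52-fold rise (0.61 ± 0.11, limma adjusted p = 0.00920), and FN1 and FBN1 rose 4.34-fold and 4.61-fold. Of 18 measured surface substrates of ADAM10 and ADAM17 0 rose and 3 fell, namely CDH1, EREG and TGFA, with a median of -0.08. In lists of 6 to 18 genes a single call is a share above those of all genes. These lists were drawn from general knowledge, and nothing is claimed of them as groups.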

How the data were processed

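Biotinylated RNA from 6 samples was measured on Affymetrix gene arrays, per the labels' protocols. The authors deposited log2 values per probe set, computed with RMA, per the submitters' processing notes, without version or probe definitions. RMA gives every array the same distribution of probe intensities before they are combined per probe set, which would hide a global shift in expression. Groups came from the treatment label and replicate numbers from the titles, which call the samples biological replicates. P-values reflect only the variation among these arrays, which may be technical. Of 33297 probe sets, 19460 had 1 gene symbol in the platform annotation, 1754 had several and 12083 were unnamed. A gene took its brightest probe set over all 6 arrays. No filter was applied. Members matched RefSeq's table by Entrez identifier (67 of 67), used for gene order only.

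The fit used limma 3.58.1 under R 4.3.3 (lmFit, eBayes, 2-sided, no covariates), with Benjamini-Hochberg adjustment over 18417 genes; the procedure was tested on simulated data. Tables and plots used Python 3.11.15, pandas 2.3.3 and matplotlib 3.10.9. Members, lists and tests were chosen with earlier results of these data known. Named with values were all members past the threshold, those with separate groups and a difference of at least 0.5, the brightest of each subfamily, and 19 members chosen for their known roles. Alternatives were other normalizations, brightness filters, the mean of probe sets, other variance models, array weights, a replicate block, each array left out, other thresholds and limma's treat; a fit over all probe sets was added after seeing the data. No set test was run.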

Additional observations from a re-analysis of the deposited data

Results flagged for a closer look

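A probe set annotated to both an ADAM gene and a pseudogene, and so left out of the members by the rule, gave a signal outside the comparisons. It read 4.92, 4.91 and 4.70 in GFP and 5.64, 5.52 and 5.89 in TwistER arrays, a difference of 0.84 ± 0.14 (SE) with a limma adjusted p of 0.0244 over all 33297 probe sets. Its groups were separate, and which of the annotated transcripts it reads was not tested. The member ADAM21, part of that annotation, has a probe set of its own, which read 2.63, 3.54 and 2.51 in GFP and 3.63, 2.50 and 3.50 in TwistER arrays (0.31 ± 0.35, limma adjusted p = 0.688, 95% interval -0.48 to 1.10), with overlapping groups. The only other probe set left out in this way, annotated to more than 1 MMP gene, had a difference of 0.06 ± 0.10 (limma adjusted p = 0.879).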

How the results depend on the processing

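ADAMTS1, RECK and MMP8 kept their direction and their call in every alternative fit in which they were tested, and so did ADAMTS12 except under treat. In all members together, 3 rose and 1 fell in the fit reported. With array weights 6 rose and 4 fell, where 1551 and 1717 of all 18417 genes did. At an adjusted p under 0.10 6 rose and 3 fell, and the share of all genes at that threshold was not counted. The number that fell was 2 after quantile normalization again, median centring or cyclic loess, through ADAM15, which takes the ADAM genes that fell from 0 to 1. Of all genes, 774, 760 and 723 fell in these fits in that order, against 757 in the fit reported. Among genes above the 50 percentile of brightness 16 members were tested, and MMP8 and ADAMTS12 were not among them. For that reason 0 members fell and 1 ADAMTS gene rose in place of 2. In the same fit 2 inhibitors rose in place of 1. Of the ADAM genes, 1 rose and 3 fell with array weights, and 2 fell at an adjusted p under 0.10. Inhibitors that rose numbered 2 after median centring, cyclic loess or the replicate block, and 3 with array weights or at an adjusted p under 0.10. Of all genes, 812, 965 and 840 rose with median centring, cyclic loess and the replicate block, against 870 in the fit reported. With treat 1 ADAMTS gene rose. When each array was left out in turn, 3 to 4 members rose and 1 to 2 fell, the higher values being those without GFP replicate 1. In that fit 1 ADAM gene rose and 1 fell, and no ADAM gene was called when any other array was left out.

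Among the 23 named members, signs changed for 5, each within 0.13 of 0 in the fit reported. MMP9 was -0.01 after quantile normalization again, -0.0181 after median centring, -0.0207 after cyclic loess and -0.13 with array weights, and MMP7 was 0.13 with array weights. With single arrays left out, MMP9 ranged from -0.11 to 0.14, MMP7 from -0.25 to 0.15, MMP15 from -0.10 to 0.035, ADAM9 from -0.0116 to 0.08 and ADAM12 from -0.0173 to 0.21. The causes were not tested. Over all genes, changed genes numbered 1627 in the fit reported, 3268 with array weights and 2773 without GFP replicate 1.

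Same-numbered arrays of both lines deviated together at r = 0.139, 0.0154 and 0.157 over genes, and differently numbered arrays at -0.16 to 0.04. The titles do not say that equal numbers are pairs, so they are not read as pairs, and whether they are was not settled. With the replicate number as a block, 4 members rose and 1 fell, the added one being TIMP1 (limma adjusted p = 0.0198), and 1592 genes changed in all. The number of arrays and the dim signal of 30 members limit the precision.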
